A study of Mus musculus with 6 samples.

Results

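This account follows 10 chemokine ligand genes, of 25939 genes listed, in vascular smooth muscle cells grown from mouse aorta. They are the CC ligands Ccl2, Ccl7, Ccl8, Ccl9 and Ccl5, the CXC ligands Cxcl1, Cxcl5, Cxcl12 and Cxcl16, and the CX3C ligand Cx3cl1. Control cells, which received a treatment labelled only as control, and cells given trimethylamine N-oxide (TMAO, a metabolite made by the liver from trimethylamine of gut bacteria) were compared after 48 h, with 3 RNA sequencing libraries in each group. The sources used here give neither the dose of TMAO nor the strain, sex and age of the mice. Nor do they say that the 3 libraries of a group came from separate mice, so each p-value reflects only the spread among these libraries, which may be technical. The 10 genes were picked by symbol and chosen with the values of this same comparison already known, so their differences are given below as a description, and the p-values beside them, taken from a fit across all genes, support nothing further.

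Chemokines are small secreted proteins that direct the movement of leukocytes through G protein-coupled receptors, and they are named CC, CXC or CX3C after the spacing of conserved cysteines. In the artery wall Ccl2 draws monocytes through the receptor CCR2, the CXC ligands Cxcl1 and Cxcl5 draw neutrophils through CXCR2, and Cxcl12 acts on CXCR4-bearing cells. Many CC and CXC ligands are inducible through NF-kB, whereas Cxcl12 is made constitutively by stromal cells.

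Values are FPKM, fragment counts scaled to exon length and to library size, so they can be set against each other between genes within the limits of the annotated exon lengths. The FPKM values gave whole numbers of reads, with implied totals of 14991252 to 16806728 reads per library, and 1 read in 1 kb of exon was worth 0.0595 to 0.0667 FPKM. The smooth muscle actin gene Acta2 stood at 487 ± 2.79 FPKM (SD, n = 3) in Control and 483 ± 8.68 FPKM in TMAO, while the contractile markers Tagln, Cnn1 and Myh11 (named after their values were seen) were below 1 FPKM in every library. Other listed smooth muscle markers were higher, with Myl9 at 99.1 and 94.7 FPKM in Control and TMAO. Smtn stood at 4.39 and 4.54 FPKM and Lmod1 at 2.22 and 1.97 FPKM. Of 8 smooth muscle markers 5 were tested and 0 were called by limma or voom. Des, at 1.115 and 1.53 FPKM, was the 1 with an unadjusted limma p below 0.05 and is named for that. Over all tested genes 4.48% were lower and 8.61% higher at this p. The summed FPKM of the 8 markers was 593 to 597 in Control and 578 to 596 in TMAO. The number of genes listed above 0 was 19299 to 19966 in Control and 20349 to 20844 in TMAO, and the nuclear RNA Malat1, chosen after seeing its values, ranged over 75.0 to 113 FPKM and 153 to 218 FPKM. Mitochondrial genes took 7.39% to 7.96% of the recovered reads in Control and 6.47% to 6.76% in TMAO. The part of these library differences in the results below was not tested. Because RNA came from whole cultures, fewer cells making a chemokine and less of its RNA per cell cannot be told apart.

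RefSeq promoters (build GRCm38.p6) were matched for 5 of the 10 members: Ccl8, Ccl9, Cxcl1, Cxcl12 and Cx3cl1. The 250 bases before the annotated start are printed 5′ to 3′ for the constitutive ligand Cxcl12 (chr6:117168285-117168534, plus strand), for Ccl9, the most abundant member (chr11:83578637-83578886, minus strand), and for the scarce, inducible ligand Cxcl1 (chr5:90890995-90891244, plus strand). Capitals mark matches, on either strand, to the motifs named in the next paragraph.
Cxcl12: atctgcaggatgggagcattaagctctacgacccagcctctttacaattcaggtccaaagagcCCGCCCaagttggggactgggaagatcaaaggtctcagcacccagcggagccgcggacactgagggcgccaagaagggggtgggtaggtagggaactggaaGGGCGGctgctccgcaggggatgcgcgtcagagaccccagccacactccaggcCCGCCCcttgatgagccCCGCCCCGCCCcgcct
Ccl9: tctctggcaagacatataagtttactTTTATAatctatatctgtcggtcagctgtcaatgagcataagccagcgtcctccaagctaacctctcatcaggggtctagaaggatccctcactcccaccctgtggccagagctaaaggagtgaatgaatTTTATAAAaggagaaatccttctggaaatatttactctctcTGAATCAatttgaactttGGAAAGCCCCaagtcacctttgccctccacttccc
Cxcl1: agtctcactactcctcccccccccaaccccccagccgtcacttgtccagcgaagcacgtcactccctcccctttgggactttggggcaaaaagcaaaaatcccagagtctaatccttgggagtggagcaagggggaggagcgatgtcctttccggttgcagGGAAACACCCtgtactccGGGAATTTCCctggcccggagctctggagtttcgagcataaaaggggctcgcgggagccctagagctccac

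The motifs searched on both strands were a kappa-B motif of NF-kB (GGGNNTTTCC), the TATA box (TATAAA), the GC box (GGGCGG), an AP-1 motif (TGANTCA), a cAMP response element (TGACGNCA) and an interferon element (GAAANNGAAA). Of 32851 promoters of the same length, 1.41% held the kappa-B motif, 12.4% the TATA box, 32.7% the GC box, 6.75% the AP-1 motif, 2.75% the cAMP response element and 2.98% the interferon element. Cxcl12 held 5 GC boxes, the last pair of them overlapping by 1 base, and no match to the other motifs, in a window with 64.4% G and C and 14 CpG. Cxcl1 held 2 kappa-B matches, from 89 to 80 and from 71 to 62 bases before the start, at 59.2% G and C. Ccl9 held a kappa-B match on the opposite strand from 35 to 26 bases before the start, an AP-1 match from 53 to 47 and TATA matches on both strands that overlap from 94 to 87, at 43.6% G and C. Ccl8 held a TATA box from 32 to 27 bases before the start, and Cx3cl1 a GC box and a TATAAA that ends on the last base before the start. These starts are those of the RefSeq promoters. The Cx3cl1 window spans chr8:94771930-94772179, but GENCODE M21 starts the gene at 94772009, so both matches lie inside the gene by that annotation. None of the 5 windows held the cAMP response or interferon motif in these letters. A match is a description of the letters and does not show binding.

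Levels differed widely between the members. Ccl9 was highest, with a mean of 95.5 FPKM over all 6 libraries and the 613th highest level of all listed genes. Ccl2, Cxcl12 and Ccl7 followed at 66.9, 64.9 and 59.9 FPKM, with overlapping ranges across libraries, so their order depended on the group. Ccl8 stood at 7.93 FPKM and Cxcl16 at 1.56 FPKM, each below the gene before it in 6 of 6 libraries. Cxcl1 (0.540), Cx3cl1 (0.338), Ccl5 (0.275) and Cxcl5 (0.247 FPKM) had overlapping ranges and did not reach the filter of the test, at least 1 FPKM in at least 3 libraries. Ccl9, Ccl2, Ccl7 and Cxcl12 together carried 93.5% to 94.1% of the summed FPKM of the 28 chemokine ligand genes in the tables in Control, and 92.7% to 93.8% in TMAO.

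**Figure D1:**
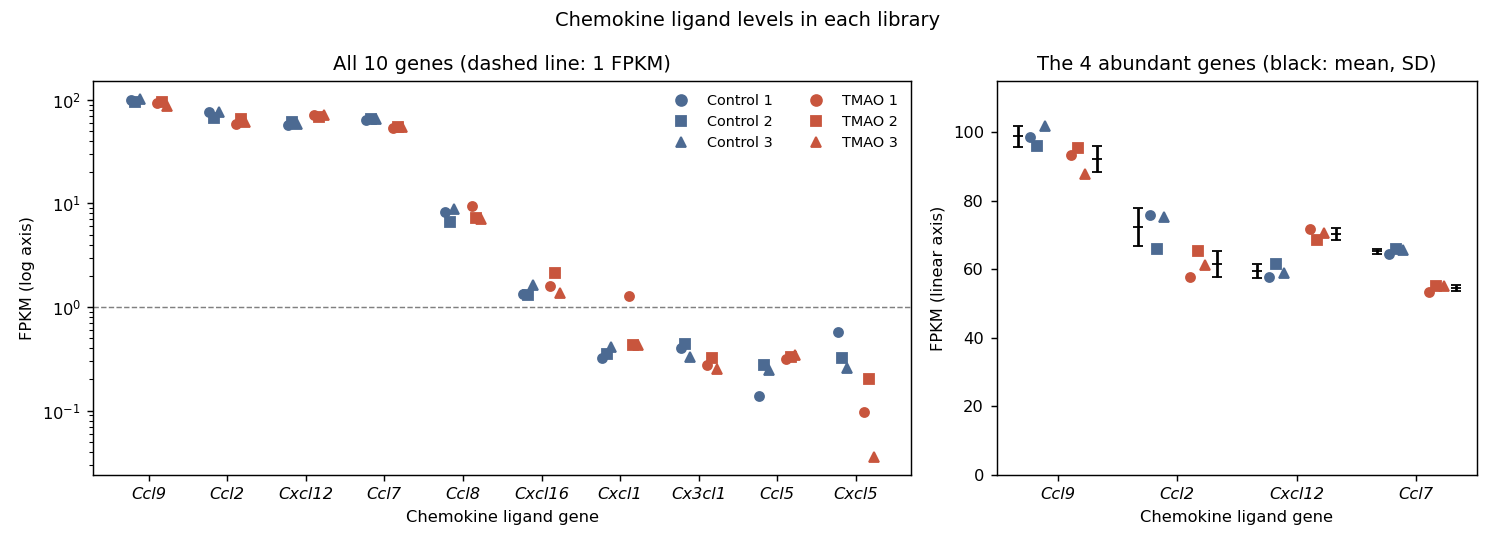
FPKM of the 10 chemokine ligand genes in each of 3 Control (blue) and 3 TMAO (red) libraries, on a log axis (left), and of the 4 abundant genes on a linear axis with the mean and SD of each group in black (right). The dashed line marks 1 FPKM. Ccl7 lies lower and Cxcl12 higher in all 3 TMAO libraries, and Cxcl1 stands apart in TMAO 1 at 1.29 FPKM.

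After TMAO, Ccl7 fell by 16.4% and was the 1 member past the threshold, an adjusted p of 0.05 in limma over 11062 tested genes. Its neighbour Ccl2 and the most abundant ligand, Ccl9, had lower means without passing, and Cxcl12 had a mean 18.4% higher without passing. Among all tested genes 0.108% were called lower and 0.0723% higher, and of the 6 tested members 1 was called lower and 0 higher with limma, whereas 2 lower and 1 higher had an unadjusted p below 0.05. Over all tested genes 4.48% were lower and 8.61% higher at an unadjusted p below 0.05. With voom on the recovered reads 1 member, Cxcl12, was called higher, among 0.395% of genes called higher and 0.496% called lower. The median log2 fold change was -0.05 over the 6 tested members and 0.03 over all tested genes.

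Ccl7 codes for a chemoattractant of monocytes that acts through CCR2 among other receptors. It stood at 64.4, 65.8 and 65.5 FPKM in Control 1 to 3 and at 53.4, 55.1 and 55.0 FPKM in TMAO 1 to 3. The groups did not overlap, and the lowest Control library exceeded the highest TMAO library. The gene (ENSMUSG00000035373) lies on the plus strand of chromosome 11, at 82045712 to 82047525 of mm10. Its means were 65.3 ± 0.720 FPKM (SD, n = 3) and 54.5 ± 0.958 FPKM. On the scale of log2(FPKM + 1) it fell by 0.26 ± 0.041 (SE, 95% interval of the log2 fold change -0.35 to -0.16), at an adjusted p of 0.0453 by limma. In 12 of 16 alternatives Ccl7 did not pass, and the limma or voom adjusted p ranged from 0.0252 to 0.262, among them the exclusion of any Control library, of TMAO 1 or of TMAO 3. Between replicates Ccl7 varied by 1.10% (CV) in Control and 1.76% in TMAO, less than the 3.50% and 3.80% that counting error alone gives at its mean of 817 and 691 reads. The voom fit weighs values by the trend of variance with read count over all genes, which includes variation between replicates. For Ccl7 it had an SE 1.6 times as large and an adjusted p = 0.0604.

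Ccl2, the main monocyte attractant of the vessel wall, stood at 75.7, 66.0 and 75.4 FPKM in Control and 57.9, 65.4 and 61.3 FPKM in TMAO. Control 2 and TMAO 2 nearly met, at 66.0 and 65.4 FPKM, and the other libraries were further apart. Ccl2 (ENSMUSG00000035385, chromosome 11, 82035571 to 82037453) had group values of 72.4 ± 5.54 and 61.5 ± 3.80 FPKM. The log2 fold change was -0.23 ± 0.064, at a limma adjusted p = 0.180. Its mean was 15.0% lower in TMAO, close to the difference of Ccl7, but its replicates varied more, by 7.65% and 6.18%.

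Ccl9, a ligand of CCR1, stood at 98.7, 95.9 and 101.9 FPKM in Control and at 93.3, 95.4 and 87.9 FPKM in TMAO. The lowest Control and the highest TMAO library were 0.6 FPKM apart. Its group values were 98.8 ± 2.99 and 92.2 ± 3.85 FPKM. The log2 fold change was -0.10 ± 0.046 (95% interval -0.20 to 0.003), at a limma adjusted p = 0.390. Ccl9 (ENSMUSG00000019122) lies on the minus strand of chromosome 11, from 83572919 to 83578636.

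Ccl8, a further member of the monocyte chemoattractant group, stood at 8.34, 6.62 and 8.85 FPKM in Control and 9.47, 7.24 and 7.05 FPKM in TMAO. The groups overlapped throughout, and the highest and lowest library belonged to different groups. The log2 fold change was -0.0048 ± 0.129 with a 95% interval from -0.30 to 0.29 (limma adjusted p = 0.991), so a change of the size seen in Ccl7 lies within its error. Ccl8 had 51 to 80 reads per library (chromosome 11, 82115185 to 82116799).

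Cxcl12, the ligand of CXCR4 and of the scavenging receptor ACKR3, stood at 57.7, 61.7 and 58.9 FPKM in Control and at 71.8, 68.6 and 70.7 FPKM in TMAO. All 3 TMAO libraries lay above all Control libraries. Its group values were 59.4 ± 2.06 and 70.4 ± 1.65 FPKM, and the log2 fold change was 0.24 ± 0.045 (95% interval 0.14 to 0.34), at a limma adjusted p = 0.0759. Cxcl12 (ENSMUSG00000061353, chromosome 6, 117168535 to 117181367, plus strand) had 7078 to 9701 reads per library, the most of any member. It passed in 3 of 16 alternatives, with a filter of a mean of 5 FPKM (adjusted p = 0.0379), with voom on the recovered reads (0.0077) and with voom on genes with a mean of 3 reads (0.0048). Over all alternatives its adjusted p reached 0.321, with no filter.

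Cxcl16, a transmembrane chemokine that is the ligand of CXCR6 and also a scavenger receptor, stood at 1.34, 1.30 and 1.62 FPKM in Control and 1.60, 2.12 and 1.37 FPKM in TMAO. The groups overlapped, and TMAO 2 stood above the other libraries. Its log2 fold change of 0.15 ± 0.111 had a limma adjusted p = 0.616 and was 0.04 without TMAO 2. Of its 3021 exon bases, 552 are shared with Zmynd15 on the opposite strand, and no source used here says whether counting used strand. Zmynd15 itself stood at 0.0391 ± 0.0183 and 0.0666 ± 0.0138 FPKM.

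**Figure D2:**
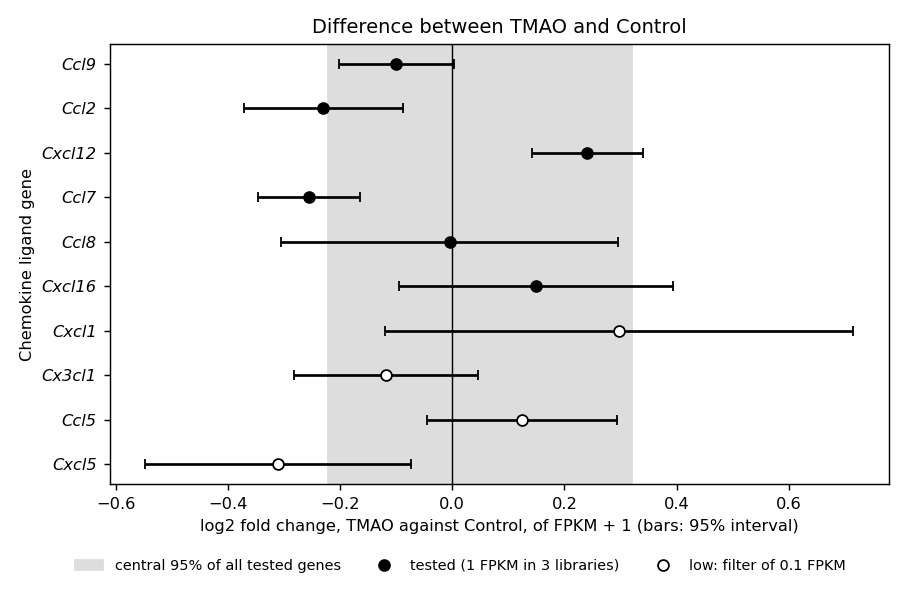
log2 fold change of FPKM + 1 between TMAO and Control for each chemokine ligand gene, with its 95% interval in limma. Filled points were tested among genes of at least 1 FPKM in 3 libraries, open points come from the fit with a filter of 0.1 FPKM, and the grey band spans the central 95% of log2 fold changes of all tested genes (-0.222 to 0.321). The intervals of Ccl7, Ccl2, Cxcl12 and Cxcl5 lie on one side of 0, and the points of Ccl7 and Ccl2 lie outside the grey band. The open point of Cxcl5 does too, but it comes from another fit and from a lower level than the genes of the band.

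The place of Cxcl12 among the abundant ligands differed between the groups, while Ccl9 stood above it in all 6 libraries. Cxcl12 was the lowest of the 4 abundant ligands in 3 of 3 Control libraries and stood second, after Ccl9, in 3 of 3 TMAO libraries. The ratio of Cxcl12 to Ccl7 was 0.895 to 0.938 in Control and 1.24 to 1.34 in TMAO. The ratio of Cxcl12 to Ccl2 went from 0.761 to 0.935 in Control libraries to 1.05 to 1.24 in TMAO libraries, and that of Cxcl12 to Ccl9 from 0.578 to 0.643 to 0.719 to 0.804. The ratio of Ccl2 to Ccl7 overlapped between the groups, at 1.003 to 1.18 and 1.08 to 1.19. The ratio of Ccl9 to Ccl7 was 1.46 to 1.56 in Control and 1.60 to 1.75 in TMAO, without overlap. A ratio within a library does not depend on how the library was scaled. These ratios restate the values by which the members were chosen, do not say which gene moved and are given as a description. The summed FPKM of Ccl2, Ccl7 and Ccl9 was 236 ± 7.82 in Control and 208 ± 6.64 in TMAO.

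**Figure D3:**
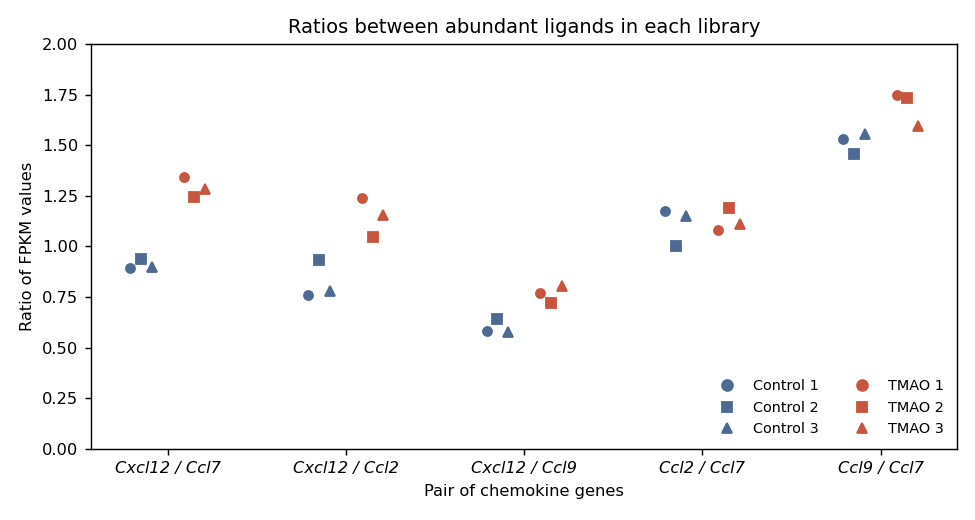
Ratios of FPKM values between abundant chemokine ligands within each of the 3 Control (blue) and 3 TMAO (red) libraries, on an axis from 0. The Cxcl12 to Ccl7 ratio separates the groups, at no more than 0.938 in Control and no less than 1.24 in TMAO, as does the Ccl9 to Ccl7 ratio, and the Ccl2 to Ccl7 ratio overlaps between them.

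Ccl2, Ccl7 and Ccl8 lie in 1 cluster of CC ligand genes on chromosome 11, with Ccl11 and Ccl12 between Ccl7 and Ccl8. Ccl7 begins 10.1 kb after the start of Ccl2 and Ccl11 begins 22.2 kb after it. Ccl11 (eotaxin, an attractant of eosinophils), the next gene after Ccl7, stood at 3.69, 3.13 and 2.80 FPKM in Control and 2.18, 1.91 and 2.65 FPKM in TMAO. Its TMAO libraries were thus all below its Control libraries, as those of Ccl2 and Ccl7 were. Of all tested genes 6.23% were wholly below. The difference of Ccl11, -0.37 on the log2 scale, did not pass (limma adjusted p = 0.187). Ccl12, at 66.3 kb, had 0.0781 and 0.0765 FPKM, and Ccl8, at 79.6 kb, overlapped between the groups. Ccl9 and Ccl5 lie together elsewhere on this chromosome, with 47.1 kb between their first annotated bases, at mean levels of 95.5 and 0.275 FPKM. Ccl6, the next gene beside Ccl9, was below 1 FPKM in every library, with overlapping groups.

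**Figure D4:**
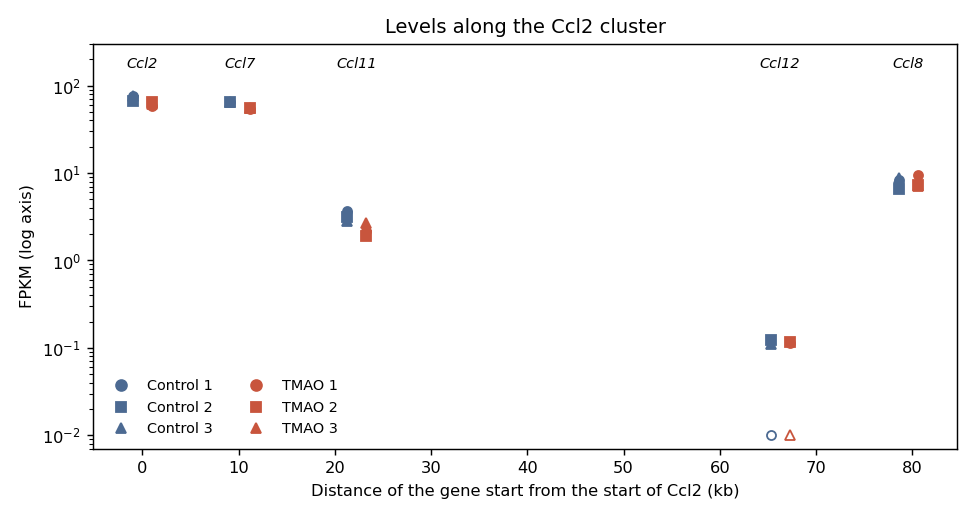
FPKM (log axis) of the listed genes of the Ccl2 cluster in each library against the distance of the gene start from the start of Ccl2, with Control in blue and TMAO in red drawn side by side and open symbols for a value of 0, drawn at 0.01. The TMAO libraries of Ccl2, Ccl7 and Ccl11, within 22.2 kb, all lie below the Control libraries, as for 6.23% of all tested genes. Ccl2 and Ccl11 did not pass (limma adjusted p = 0.180 and 0.187), and Ccl8 at 79.6 kb is not separated.

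The 4 scarce members rested on few reads. For all of them the TMAO libraries lay on one side of the Control libraries, 2 above (Ccl5 and Cxcl1) and 2 below (Cxcl5 and Cx3cl1). Among the 6 tested members 1 was wholly above (Cxcl12) and 3 wholly below (Ccl2, Ccl7 and Ccl9). Of all tested genes 12.4% were wholly above and 6.23% wholly below, and of the genes between the filters of 0.1 and 1 FPKM 11.6% were above and 3.23% below. The members were chosen with this comparison known, so nothing is read from these counts.

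Cxcl5, a ligand of the neutrophil receptor CXCR2, stood at 0.572, 0.321 and 0.256 FPKM in Control, from 16, 9 and 8 reads. It stood at 0.0974, 0.202 and 0.0358 FPKM in TMAO, from 3, 6 and 1 reads. Summed over libraries these are 33 reads (95% Poisson interval 22.7 to 46.3) in Control and 10 reads (4.795 to 18.4) in TMAO, in intervals that cover counting error only. The log2 fold change was -1.75 with voom on genes with a mean of 3 reads, at an adjusted p = 0.202, and -0.31 on log2(FPKM + 1) with the filter of 0.1 FPKM (limma adjusted p = 0.311). The difference did not pass in either fit.

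Cxcl1, a further neutrophil attractant of CXCR2, stood at 0.320, 0.354 and 0.413 FPKM in Control and at 1.29, 0.435 and 0.427 FPKM in TMAO. TMAO 1, with 40 reads, stood apart from the other TMAO libraries, with 13 and 12 reads, and from the Control libraries, with 9, 10 and 13 reads. The ratio of means was 1.98 with TMAO 1 and 1.19 without it (adjusted p = 0.472 by voom on genes with a mean of 3 reads, with all libraries). TMAO 1 was also the library with the most genes above 0 and the highest Malat1, and whether these are linked was not tested.

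Cx3cl1, a membrane-anchored chemokine that holds cells bearing CX3CR1, stood at 0.407, 0.439 and 0.333 FPKM in Control and 0.277, 0.319 and 0.255 FPKM in TMAO. The lowest Control and highest TMAO library differed by 2 reads, 22 and 20. The limma adjusted p with the filter of 0.1 FPKM was 0.577. Ccl5, an attractant of T cells, stood at 0.139, 0.277 and 0.248 FPKM in Control and 0.315, 0.327 and 0.347 FPKM in TMAO. These came from 2, 4 and 4 reads and from 5 reads in each TMAO library, whose Poisson intervals overlap throughout (limma adjusted p = 0.568).

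**Figure D5:**
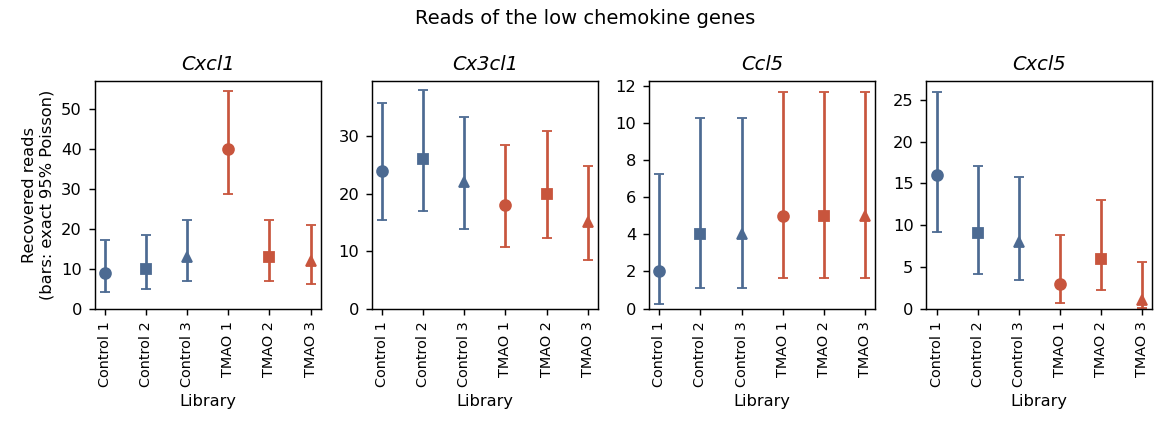
Recovered reads of Cxcl1, Cx3cl1, Ccl5 and Cxcl5 in each library, with exact 95% Poisson intervals that cover counting error only. The 40 reads of Cxcl1 in TMAO 1 stand apart, and the intervals of Ccl5 and Cx3cl1 overlap between the groups.

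The other chemokine ligands were scarce. Of 16 further CC ligands 10 were in the tables and 2 were tested, and of 12 further CXC and XC ligands 8 were in the tables and 0 were tested. Neither tested gene was called by limma or voom, and 1, Ccl11, was lower at an unadjusted limma p below 0.05. Over all tested genes 4.48% were lower and 8.61% higher at this p. Ccl27a, a ligand best known from skin whose near-identical gene copies make its reads uncertain, stood at 1.78 ± 0.267 and 1.97 ± 0.0561 FPKM (limma adjusted p = 0.689). Ccl25 and Cxcl14 stood at 0.762 and 0.601 FPKM in Control and at 0.835 and 0.554 FPKM in TMAO. Cxcl10, an interferon-induced attractant of T cells, had 5, 3 and 6 reads in Control and 19, 12 and 7 reads in TMAO, at 0.132 ± 0.0378 and 0.351 ± 0.152 FPKM. Its TMAO libraries all lay above, as did 11.6% of genes between the filters of 0.1 and 1 FPKM. With the filter of 0.1 FPKM the limma adjusted p of Cxcl10 was 0.364.

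Most receptors for these ligands were below the filter of the test, and Ackr3 and Ccr1 passed it. Of 18 chemokine receptor genes 13 were in the tables and 1 was tested, Ccr1, a receptor of Ccl9 and Ccl5, at 1.16 ± 0.153 and 1.06 ± 0.250 FPKM (limma adjusted p = 0.847). Cx3cr1 stood at 0.243 and 0.243 FPKM and Cxcr4 at 0.108 ± 0.0408 and 0.223 ± 0.0779 FPKM in Control and TMAO. Cxcr4 rested on 4, 3 and 2 reads in Control and 4, 8 and 7 reads in TMAO, with overlapping groups. With the filter of 0.1 FPKM its limma adjusted p was 0.522. Ccr2, the receptor of Ccl2 and Ccl7 (named for that reason), stood at 0.0157 and 0.00936 FPKM. Among 5 atypical receptors, which take up chemokines without G protein signalling, Ackr3 was the 1 tested, at 4.46 ± 0.544 and 4.87 ± 0.142 FPKM (limma adjusted p = 0.622). In both receptor lists 0 genes were called by limma or voom and 0 had an unadjusted p below 0.05.

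Of 10 proteases that release or trim chemokines 7 were tested and 0 were called by limma or voom, while 1 higher (Ctsk) and 1 lower (Mmp3) had an unadjusted p below 0.05. Ctsk, the gene of the protease cathepsin K, stood at 112 ± 1.43 and 125 ± 3.29 FPKM (limma adjusted p = 0.164). Its TMAO libraries all lay above, as did those of 12.4% of all tested genes. Adam10, the sheddase of Cx3cl1 and Cxcl16, stood at 26.4 ± 0.812 and 25.3 ± 1.88 FPKM, and Mmp2, which can cleave Cxcl12 and Ccl7, at 31.2 ± 1.83 and 29.4 ± 1.97 FPKM. Mmp3 stood at 182 ± 7.76 and 169 ± 2.83 FPKM (limma adjusted p = 0.363). Of 9 carriers and enzymes of heparan sulfate, the chain that holds chemokines at the cell surface, 7 had a negative log2 fold change, 0 were called by limma or voom and 4, all lower, had an unadjusted p below 0.05. Of all tested genes 40% had a negative and 60% a positive log2 fold change, and 4.48% were lower and 8.61% higher at an unadjusted p below 0.05. The lists were chosen with earlier results of these data known, so nothing is read from these counts. The syndecan gene Sdc4 stood at 55.6 ± 4.55 and 47.2 ± 3.80 FPKM (limma adjusted p = 0.232) and Sdc2 at 90.2 ± 2.34 and 95.2 ± 1.72 FPKM (limma adjusted p = 0.460).

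Of 11 tested NF-kB regulators 0 were called by limma or voom with all libraries. Among them 2, both higher, had an unadjusted limma p below 0.05, against 8.61% of all tested genes. These were Chuk, at 10.6 and 11.9 FPKM, and Ikbkg (named for this p-value), at 5.21 and 6.11 FPKM. For both, all TMAO libraries lay above all Control libraries, as for 12.4% of all tested genes (limma adjusted p = 0.2921 and 0.2915). Without TMAO 2, limma called 1 of the 11 regulators higher, Nfkbiz (adjusted p = 0.0374), an atypical I-kappa-B chosen for this after seeing its values. With all libraries Nfkbiz stood at 4.05 ± 0.318 and 5.44 ± 1.34 FPKM (limma adjusted p = 0.418). The inhibitor gene Nfkbia stood at 20.8 ± 0.405 and 21.0 ± 0.482 FPKM (limma adjusted p = 0.914), and the subunit gene Rela at 10.4 ± 1.36 and 9.81 ± 0.294 FPKM (limma adjusted p = 0.746). Of 17 cytokine and cytokine receptor genes 13 were tested. Of these 0 were called by limma or voom and 0 had an unadjusted p below 0.05, with Tnfrsf1a, a receptor of tumour necrosis factor, at 34.9 ± 1.18 and 33.5 ± 1.47 FPKM. Among the untested genes Il6, chosen after seeing its values, stood at 0.672 ± 0.136 and 1.07 ± 0.102 FPKM. Its TMAO libraries all lay above, as did 11.6% of genes between the filters of 0.1 and 1 FPKM. With the filter of 0.1 FPKM its limma adjusted p was 0.264. Tnf, also untested, stood at 0.155 and 0.0891 FPKM, with overlapping groups. Of 8 factors that bind and turn over chemokine transcripts, 7 had a positive log2 fold change, against 60% of all tested genes. Zfp36 (tristetraprolin, which destabilises AU-rich transcripts), the 1 of them with an unadjusted p below 0.05, stood at 9.19 ± 0.642 and 13.2 ± 1.87 FPKM. Its log2 fold change was 0.47 at a limma adjusted p = 0.0871, and it was called by voom (0.00903). In limma it also passed with the filter of a mean of 5 FPKM (adjusted p = 0.0389) and without TMAO 2 (0.0371).

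Markers of other cells that make chemokines were set beside these values. Of 10 macrophage markers 4 were tested and 0 called by limma or voom, with 1 unadjusted p below 0.05, and their summed FPKM was 83.3 to 102.5 in Control and 80.2 to 87.1 in TMAO. Lyz2 carried most of this, at 77.0 ± 7.44 and 70.0 ± 4.34 FPKM, while the leukocyte gene Ptprc, chosen as a defining marker after seeing its values, stood at 0.0399 and 0.0401 FPKM. Cd14 stood at 5.40 ± 1.08 and 5.14 ± 0.487 FPKM, and Cd68 at 4.17 ± 0.691 and 4.28 ± 0.590 FPKM. Tyrobp, a signalling adaptor of myeloid cells and the 1 marker with an unadjusted p below 0.05, stood at 3.95 ± 0.534 and 2.89 ± 0.586 FPKM, with overlapping groups and a lower mean in TMAO (limma adjusted p = 0.248). Of 6 fibroblast markers 5 were tested and 0 called by limma or voom. Pdgfra, at 26.5 ± 1.26 and 23.8 ± 1.33 FPKM, was the 1 with an unadjusted limma p below 0.05. The fibroblast markers summed to 446 to 488 FPKM in Control and 447 to 480 FPKM in TMAO. Ly6a carried most of this sum, at 415 ± 23.2 and 410 ± 18.9 FPKM. Over all tested genes 4.48% were lower and 8.61% higher at an unadjusted limma p below 0.05. Of 7 endothelial markers 6 were in the tables and 1 was tested, and they summed to 15.5 to 16.8 FPKM in Control and 12.5 to 13.1 FPKM in TMAO, nearly all from Emcn (limma adjusted p = 0.0505 and unadjusted p below 0.05, called by voom). In limma Emcn passed with quantile scaling (adjusted p = 0.0488), median-ratio scaling (0.0418) and the filter of a mean of 5 FPKM (0.0291). Pecam1 stood at 0.0519 and 0.0717 FPKM. The T cell marker Cd2, the 1 of 4 in the tables, was at 0 in all Control libraries, in TMAO 1 and in TMAO 3, and at 0.108 FPKM from 3 reads in TMAO 2. The part of these markers in the chemokine levels was not tested.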

How the data were processed

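RNA sequencing was analysed in 6 libraries, 3 Control and 3 TMAO, assigned by their titles. Per the labels' protocols, Trizol RNA was made into libraries with a stranded mRNA kit. The authors deposited 1 table of FPKM per library (the header of Control 1 spells it PKM). The submitters' processing notes name Trimmomatic, HISAT2, Cufflinks, HTSeq and mm10; no source used here gives versions, annotation release or strand setting. Exon lengths and coordinates came from GENCODE M21 (GRCm38, the same build), which held 25885 identifiers, and 98.5% of these gave whole reads (tolerance 0.01 reads) in each of the 6 libraries. Such lengths join all annotated transcripts of a gene, so levels of genes with unused exons are understated.

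The deposited FPKM values were tested as log2(FPKM + 1) with limma 3.58.1 in R 4.3.3 (trended, robust variance, two-sided) on the 11062 genes that reached 1 FPKM in 3 or more libraries. P-values were adjusted by Benjamini-Hochberg over all tested genes, at 0.05. Fold changes on this scale understate those of low genes. Alternatives were quantile and median-ratio scaling, other filters (none, 0.1 FPKM, a mean of 5 FPKM), a pseudocount of 0.1, a variance that is not robust, the replicate block, voom on recovered reads and each library left out; voom on genes with a mean of 3 reads was added after seeing the data. The scripts were tested on simulated data. Within each group no library repeated another, by chi-square tests of reads.

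The members and lists were chosen with earlier results of these data known. The text names all 10 members, and from each list called genes or up to 4 with the highest mean FPKM, and neighbours of members. Other genes are marked. Python 3.11.15 made the tables and figures.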

Additional observations from a re-analysis of the deposited data

How the results depend on the processing

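The count of genes past the threshold, 20 with limma, became 0 with no filter (1999 had an unadjusted p below 0.05), 50 with a filter of a mean of 5 FPKM, 97 with voom and 107 with voom on genes with a mean of 3 reads, and 11 to 56 when 1 library was left out. It was 11 without Control 3, 12 without TMAO 1 and 56 without TMAO 2. Higher and lower genes numbered 8 and 12, against 12 and 7 with the filter of 0.1 FPKM, 8 and 3 without Control 3, 42 and 14 without TMAO 2, and 7 and 18 or 9 and 18 with quantile or median-ratio scaling.

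The count of members past it, 1, became 2 with the filter of a mean of 5 FPKM (Ccl7 and Cxcl12). It became 0 with median-ratio scaling, no filter, the filter of 0.1 FPKM or a variance that is not robust. When 1 library was left out it was 0 to 1. In the fits with 1 library left out, 3 or 4 members had an unadjusted limma p below 0.05, among 1056 to 1516 of the 11062 tested genes. The count past the threshold stayed at 1 with voom, as Cxcl12 in place of Ccl7. The cause was not tested. Ccl2, Ccl7, Ccl9, Cxcl12 and Cxcl16 kept their direction in every alternative that tested them. Ccl8 turned to 0.03, 0.07, 0.05 and 0.06 (log2) when Control 1, Control 3, TMAO 2 or TMAO 3 was left out, within a range of -0.1259 to 0.0694 over all 6 libraries left out in turn.

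With the replicate block 22 genes were called (12 higher, 10 lower) and 0 members, against 20 and 1 without it. In that fit 3 members had an unadjusted limma p below 0.05, among 1185 of the 11062 tested genes. The deviations of same-numbered libraries from their group means had correlations of -0.0858, -0.104 and 0.0555, so the numbers were not taken to pair the libraries. At 1 to 40 reads per library, depth limits what can be said of Cxcl1, Cx3cl1, Ccl5 and Cxcl5.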
